A study of Mus musculus with 8 samples.

Results

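The insulin-like growth factor (IGF) genes described here were the 2 ligands Igf1 and Igf2, the receptor Igf1r and the 6 binding proteins Igfbp2 to Igfbp7, 9 genes among the 80155 loci measured in each heart. They were chosen by name. Each symbol was looked up in the annotation of the loci, ignoring case, and each of the 9 was found on 1 locus. RNA was sequenced from whole hearts, with the atrial appendages removed, of male Hsd:ICR(CD-1) mice, an outbred stock for which the labels name no allele and no treatment. The comparison was between 4 hearts taken at postnatal day 1 (P1) and 4 hearts taken at postnatal day 7 (P7), each heart from its own mouse and sequenced as its own library. Levels are in FPKM, that is, fragment numbers divided by transcript length and by the size of the library, so they are per length when genes are compared. Between hearts they still depend on how the libraries are scaled.

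IGF1 and IGF2 are small secreted proteins related to insulin. Both activate the receptor tyrosine kinase IGF1R, which passes the signal through adaptor proteins to the PI3K-AKT and RAS-MAPK pathways, whereas the IGF2 receptor takes IGF2 up for degradation. In extracellular fluid most of the ligand is held by binding proteins, which carry it, keep it from the receptor or deliver it when proteases cut them, and IGFBP7 binds it only weakly. In rodents Igf2 is the main ligand gene before birth, while Igf1 is driven after birth by growth hormone. IGF signalling is known for driving growth of the heart muscle.

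Between P1 and P7 the binding protein genes Igfbp7, Igfbp4 and Igfbp6 rose, by 3.30-fold, 2.37-fold and 2.30-fold in mean FPKM. No ligand or receptor gene passed the test. Igf2 and Igfbp2 had lower FPKM in all P7 hearts than in any P1 heart, with ratios of the means of 0.715 and 0.458, but their adjusted p-values were 0.236 and 0.0683. Igf1, Igf1r, Igfbp3 and Igfbp5 overlapped between the stages. Igf2 was the most abundant of the 9 transcripts at P1 and Igfbp7 at P7.

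The test was limma on log2(FPKM + 1) over the 43172 loci that reached 1 FPKM in at least 1 heart, with Benjamini-Hochberg adjustment over all of them, and a gene was a differentially expressed gene (DEG) if the adjusted p was under 0.05 and the mean FPKM of the stages differed by 1.5-fold or more. By this rule 3 of the 9 genes were higher in P7 and 0 were lower, while 5 of the 9 had an unadjusted p under 0.05. The share of all tested loci at that unadjusted p is not given here, so such counts, also those below, have no background beside them. Of all tested loci 3.82% were called, 3.45% as higher and 0.371% as lower; of the 17960 tested loci with a gene symbol 8.14% were called, 7.74% as higher and 0.401% as lower. All P7 hearts lay above all P1 hearts for 3 of the 9 genes, beside 8.5% of all tested loci and 17.3% of those with a symbol. They lay below all P1 hearts for 2 of the 9, beside 4.03% and 2.69%, so that the stages were separate in either direction for 5 of the 9, beside 12.5% of all tested loci and 20% of those with a symbol. The median log2 fold change of the 9 genes was 0.16, and that of the tested loci with a symbol was 0.19. The 9 genes were chosen with earlier results of these hearts known, so these shares describe them and are not a test of the group. Without P1 replicates 1 and 3, which held liver markers, 1 of the 9 (Igfbp7) was called. Over all 33410 loci tested in that fit, 41 were called higher and 12 lower. Without P7 replicates 2 and 4, which held adipose markers, 2 of the 9 were called (Igfbp7 and Igfbp4). Over all 41515 loci tested there, 359 were called higher and 51 lower. Both sets of hearts were left out after the data had been seen.

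The hearts were not equal in all respects. The FPKM of 1 fragment in a 1 kb transcript, read from the steps between low values, lay between 0.0482 and 0.0762, so the deepest library held 1.58 times the fragments of the shallowest. Summed FPKM of the cardiomyocyte markers Myh6, Tnnt2, Actc1, Ryr2 and Pln lay at 9392 to 16150 for P1 hearts and 10365 to 17169 for P7 hearts, with 0 of 5 called by limma and 1 of 5 at an unadjusted p under 0.05, and none was at 0. Fibroblast markers (Col1a1, Pdgfra, Dcn, Tcf21 and Lum) summed to 343 to 570 in P1 and 812 to 982 in P7, and 4 of the 5 were called higher. Leukocyte markers summed to 17.1 to 23.6 in P1 and 36.1 to 49.2 in P7, with 1 of 5 called, Lyz2, which made up most of the sum. The other 4 overlapped between the stages. Of the leukocyte markers 3 of 5 had an unadjusted p under 0.05: Lyz2, Csf1r (log2 fold change 0.44) and Cd68 (0.44). Ptprc (0.19) and Emr1 (0.38) had the same sign. Endothelial markers summed to 86.0 to 142 and 108 to 170, also with 1 of 5 called, Cdh5 (log2 fold change 0.96). Of the endothelial markers 3 of 5 had an unadjusted p under 0.05: Cdh5, Kdr (0.54) and, with the other sign, Emcn (−0.43). Mural markers summed to 289 to 596 and 232 to 356, with 0 of 5 called. The mural sum was carried by Acta2 (log2 fold change −0.90), whereas Rgs5 (0.87) and Cspg4 (0.69) had values of the other sign, and these were the 3 of the 5 at an unadjusted p under 0.05. Liver markers (Alb, Afp and Apoa1) summed to 47.3 in P1 replicate 1 and 29.6 in P1 replicate 3 and to at most 7.82 in the other hearts, and adipose markers reached 2.42 in P7 replicate 2 and 6.45 in P7 replicate 4 and at most 0.616 elsewhere, with 0 of 3 called in each list and 0 at an unadjusted p under 0.05. Of the epicardial, red cell and atrial markers 0 were called, and 1 of 3, 3 of 4 and 2 of 3 had an unadjusted p under 0.05. In RNA of whole hearts, a change in the number of cells of a type and a change in RNA per cell cannot be told apart.

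Every value of the 9 genes is shown in the plot of FPKM by heart.

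**Figure D1:**
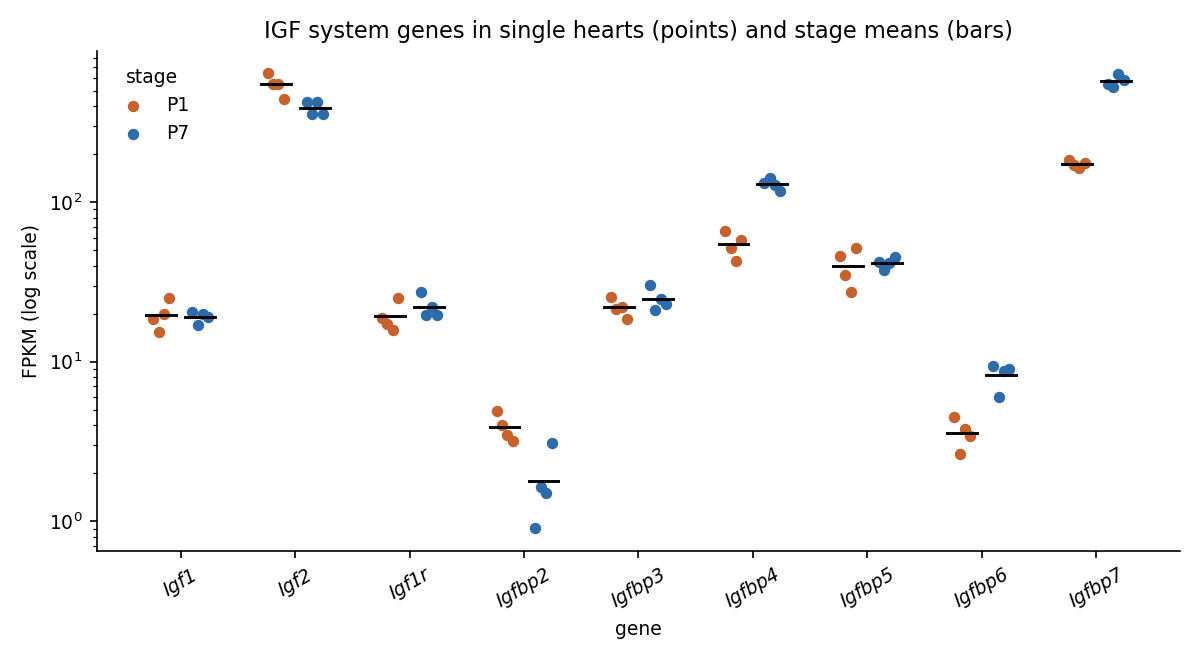
FPKM (log scale) of the 9 IGF system genes in each of the 4 P1 and 4 P7 hearts (points), with the mean of each stage as a bar. Igfbp4, Igfbp6 and Igfbp7 are higher in every P7 heart, Igf2 and Igfbp2 are lower in every P7 heart, and the other 4 genes overlap.

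The upstream sequences of the 3 binding protein genes that rose, and of Igfbp2, are given so that they can be set beside each other. Each is the 120 bases before a RefSeq transcription start in GRCm38.p6, read 5′ to 3′ on the strand of the gene. Capitals mark matches on either strand to the TATA box TATAAA, the box named CCAAT or the GC box GGGCGG. They lie at chr5:77408046-77408165 (minus strand) for Igfbp7, chr11:99041124-99041243 (plus strand) for Igfbp4, chr15:102144066-102144185 (plus strand) for Igfbp6 and chr1:72824360-72824479 (plus strand) for Igfbp2.
Igfbp7: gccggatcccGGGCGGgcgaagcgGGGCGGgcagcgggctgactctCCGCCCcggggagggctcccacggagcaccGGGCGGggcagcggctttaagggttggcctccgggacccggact
Igfbp4: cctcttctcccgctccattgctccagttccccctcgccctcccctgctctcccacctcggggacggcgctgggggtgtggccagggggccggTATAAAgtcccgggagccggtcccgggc
Igfbp6: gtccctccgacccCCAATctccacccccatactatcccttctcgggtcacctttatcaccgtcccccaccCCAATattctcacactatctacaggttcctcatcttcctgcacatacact
Igfbp2: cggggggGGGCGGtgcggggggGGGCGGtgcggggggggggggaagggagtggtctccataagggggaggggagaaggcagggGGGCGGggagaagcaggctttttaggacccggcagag

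The GC box GGGCGG, or its complement CCGCCC, occurred 4 times before Igfbp7 and 3 times before Igfbp2, so it preceded both a gene that rose and a gene with lower values in every P7 heart. The stretch of Igfbp4 held 1 TATAAA, and that of Igfbp6 held CCAAT at 2 places. RefSeq gave 13 promoter windows for the 9 genes, each from 250 bases before to 50 bases after a start. TATAAA was in 2 of the 13 and in 13.6% of 32851 such windows of all genes. CCAAT was in 3 and 37.4%, GGGCGG in 5 and 35.7%, and the E-box CACGTG, not marked above, in 1 and 7.2%. The median GC content was 63.3% for the 13 windows and 52.7% for all. These matches describe the letters of the sequence and are not evidence of binding.

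Igf2, the ligand gene that is expressed from the paternal copy in most fetal tissues, lies at chr7:142650766-142666816 on the minus strand (GRCm38, GENCODE M21). It read 640, 548, 551 and 445 FPKM in P1 replicates 1 to 4 and 425, 356, 426 and 355 FPKM in P7 replicates 1 to 4. The highest P7 heart was below the lowest P1 heart, and the P1 hearts spread more widely than the P7 hearts. The means were 545.9 ± 79.8 FPKM (SD, n = 4) and 390.3 ± 40.4 FPKM (SD, n = 4). The log2 fold change was −0.48 with a standard error of 0.20 and a 95% interval from −0.92 to −0.04, and limma gave an unadjusted p of 0.0364 and an adjusted p of 0.236. Igf2 had the lower mean at P7 under all alternatives, with log2 fold changes from −0.79 to −0.34, and it passed the test under 1 of 19, quantile normalization (−0.64, adjusted p = 0.0383). Without P1 replicates 1 and 3, the hearts with liver markers, the log2 fold change was −0.34 (adjusted p = 0.604), and the part of liver RNA in the difference was not tested. Among the tested loci with a symbol its mean FPKM ranked 134 at P1 and 215 at P7.

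Of the neighbours of Igf2 on chromosome 7, 2 could be tested, and 0 were called by limma or had an unadjusted p under 0.05. H19, the maternally expressed non-coding RNA 72.6 kb from Igf2, ranged from 861 to 2098 FPKM in P1 and from 1439 to 1884 FPKM in P7, with a log2 fold change of 0.15 ± 0.29 (SE) and an adjusted limma p of 0.761. Igf2as, an antisense transcript to which the files give the same span as Igf2, read 2.19 to 2.98 FPKM in P1 and 2.43 to 3.44 FPKM in P7. How strand was used in counting is not given in the sources used here, so reads of Igf2 and Igf2as may not be separable. Ins2 stayed under 1 FPKM in every heart and was not tested, and the symbol Igf2os matched no locus. In GENCODE M21 no gene is named Igf2as. Its antisense gene Igf2os ends at chr7:142670356, as does the Igf2 locus, so Igf2os and Igf2as may be names of the same gene. The Igf2 locus also spans Mir483, which was listed at 0 in every heart.

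Igf1, the ligand gene that growth hormone drives in liver and many other tissues, lies at chr10:87858265-87937042 on the plus strand. Its values were 18.4, 15.4, 19.9 and 25.1 FPKM in P1 replicates 1 to 4 and 20.6, 16.9, 19.9 and 19.1 FPKM in P7 replicates 1 to 4. All 4 P7 hearts were inside the range of the P1 hearts. The means of 19.7 ± 4.09 and 19.1 ± 1.59 FPKM (SD, n = 4 each) gave a log2 fold change of −0.02 with a standard error of 0.19 (limma, adjusted p = 0.944). The 95% interval ran from −0.44 to 0.39, so a change in either direction within those limits was compatible with the values. These limits are not a limit of detection, since Igfbp2, at −0.86, did not pass the test either. Igf1 was on the plus side with GC correction (0.26) and on the minus side with median-ratio scaling (−0.28), without passing the test in either.

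The receptor gene Igf1r, at chr7:67952827-68233668 on the plus strand, read 18.8, 17.3, 15.8 and 25.2 FPKM in P1 and 27.4, 19.5, 21.9 and 19.6 FPKM in P7, in the order of replicates 1 to 4. The groups overlapped through P1 replicate 4. The means were 19.3 ± 4.11 and 22.1 ± 3.72 FPKM (SD, n = 4 each), and the log2 fold change was 0.20 with a standard error of 0.20 (limma, adjusted p = 0.564). Its direction depended on the scaling, with −0.053 after median-ratio scaling and −0.059 after quantile normalization. The ranges of Igf1r and Igf1 overlapped at both stages. Within hearts, Igf1r was above Igf1 in every P7 heart and in every P1 heart but replicate 3. In P1 replicate 4 the values were nearly equal (25.15 and 25.14 FPKM).

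The genes whose pattern over the 8 hearts was closest to that of each ligand and of the receptor were sought among 7847 loci with 1 symbol and a mean of at least 5 FPKM, by the root mean square difference of centred log2(FPKM + 1). For Igf1 they were Gm16076 (0.0833), Dusp16 (0.0858) and Kcna4 (0.0884). For Igf2 they were Cstf3 (0.122), 5430417L22Rik (0.122) and Mre11a (0.139), and for Igf1r Gm9766 (0.0518), Chd3 (0.0526) and Osbpl11 (0.0536). The nearest gene to Igf2 was thus at a greater distance than the nearest to Igf1 or Igf1r. Cstf3, which codes for a part of the cleavage stimulation factor for mRNA 3′ ends, was also lower in every P7 heart, with 26.5 to 31.4 FPKM in P1 and 16.8 to 22.2 FPKM in P7.

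Igfbp7 codes for a secreted protein found in vessel walls and around fibroblasts. It lies at chr5:77349240-77408041 on the minus strand, and its start is the one with 4 GC boxes shown above. It read 184, 170, 163 and 175 FPKM in P1 replicates 1 to 4 and 547, 523, 634 and 579 FPKM in P7 replicates 1 to 4. The lowest P7 heart was far above the highest P1 heart, and the gap was wider than the range within either stage. The means were 173.0 ± 8.88 and 570.9 ± 48.1 FPKM (SD, n = 4 each), a 3.30-fold difference with a log2 fold change of 1.71, a standard error of 0.18 and a 95% interval from 1.31 to 2.11 (limma, adjusted p = 0.00244). It was called higher in P7 under 19 of 19 alternatives, with log2 fold changes from 1.29 to 1.76 and adjusted p-values from 0.000258 to 0.0425. Among the tested loci with a symbol its mean FPKM moved from rank 400 at P1 to rank 155 at P7. In the files its locus has the same span as Polr2b on the other strand, which read 10.3 to 20.4 FPKM.

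Igfbp4, whose product holds IGF back from the receptor until the protease PAPP-A cuts it, lies at chr11:99041244-99054392 on the plus strand, with the TATAAA-bearing stretch shown above. The P1 replicates 1 to 4 read 65.8, 51.6, 42.8 and 58.1 FPKM and the P7 replicates 1 to 4 read 132, 142, 128 and 117 FPKM. The stages were well separated. From 54.6 ± 9.78 FPKM (SD, n = 4) the mean rose 2.37-fold to 129.5 ± 10.3 FPKM (SD, n = 4), with a log2 fold change of 1.25, a standard error of 0.19 and a 95% interval from 0.83 to 1.66 (limma, adjusted p = 0.00831). The call held under 18 of 19 alternatives and was lost when P1 replicates 1 and 3 were both left out (1.22, adjusted p = 0.0813).

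Igfbp6, a binding protein that prefers IGF2 to IGF1, lies at chr15:102144362-102149511 on the plus strand, and its RefSeq start is upstream of that annotation. Its FPKM was low: 4.52, 2.64, 3.78 and 3.44 in P1 replicates 1 to 4 and 9.37, 6.01, 8.74 and 8.98 in P7 replicates 1 to 4. The lowest P7 heart, replicate 2, was still above all P1 hearts. The mean rose 2.30-fold from 3.59 ± 0.780 to 8.27 ± 1.53 FPKM (SD, n = 4 each), with a log2 fold change of 1.01, a standard error of 0.20 and a 95% interval from 0.58 to 1.45 (limma, adjusted p = 0.0215). On its transcript of 1112 bases these values stand for about 40.3 to 104 fragments in a P1 heart and 111 to 163 in a P7 heart. This was the least stable of the 3 calls. It was kept under 12 of 19 alternatives and lost with GC correction (0.56, adjusted p = 0.206), without P1 replicate 2 (0.91, 0.0868), without P7 replicate 1 (0.95, 0.0696), replicate 3 (0.98, 0.0665) or replicate 4 (0.97, 0.0544), without P1 replicates 1 and 3 (1.19, 0.0932) and without P7 replicates 2 and 4 (1.15, 0.0527), while the log2 fold change was positive in all.

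The summed fibroblast markers were, like Igfbp7, Igfbp4 and Igfbp6, higher in all P7 hearts than in any P1 heart, although Pdgfra alone overlapped. So was Lyz2 alone of the 5 leukocyte markers. Of the endothelial markers Cdh5 was also higher in all P7 hearts, whereas Emcn was lower in all of them. The part of these cell types in the rise of the 3 genes was not tested.

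Igfbp2, a fetal and liver binding protein gene, lies at chr1:72824503-72852474 on the plus strand, with 3 GC boxes in the stretch shown above. It read 4.91, 4.00, 3.48 and 3.19 FPKM in P1 replicates 1 to 4 and 0.909, 1.64, 1.50 and 3.08 FPKM in P7 replicates 1 to 4. Every P7 heart was below every P1 heart, but P7 replicate 4 came close to P1 replicate 4. The means were 3.89 ± 0.757 and 1.78 ± 0.920 FPKM (SD, n = 4 each). The log2 fold change of −0.86 had a standard error of 0.24 and a 95% interval from −1.37 to −0.34, with an unadjusted limma p of 0.00329 and an adjusted p of 0.0683. These values rest on few fragments, from about 101 to 133 in P1 replicate 1 to about 12.1 to 16.0 in P7 replicate 1, according to the transcript assumed. Igfbp2 passed the test as lower under 5 of the 18 alternatives that gave it a value, which were median-ratio scaling (−1.03, adjusted p = 0.0392), quantile normalization (−0.97, 0.0476), GC correction (−1.32, 0.0258), leaving out P1 replicate 4 (−0.93, 0.0459) and leaving out P7 replicate 4 (−1.06, 0.0368). Without P1 replicates 1 and 3 it was −0.77 (adjusted p = 0.2999), and the part of liver RNA was not tested.

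Igfbp5 is the neighbour of Igfbp2, 5.5 kb away on the opposite strand at chr1:72857932-72874884, and its product binds to extracellular matrix. Its FPKM was 46.0, 34.9, 27.5 and 51.8 in P1 replicates 1 to 4 and 42.2, 37.5, 41.8 and 45.3 in P7 replicates 1 to 4. The P7 hearts all fell inside the wider P1 range. The means of 40.0 ± 10.9 and 41.7 ± 3.20 FPKM (SD, n = 4 each) gave a log2 fold change of 0.09 with a standard error of 0.21 (limma, adjusted p = 0.8002), which was −0.16 after either median-ratio scaling or quantile normalization. Igfbp3, the main carrier of IGF in blood, lies 3.5 kb from Igfbp1 at chr11:7206086-7213923 on the minus strand. It read 25.5, 21.4, 22.0 and 18.6 FPKM in P1 and 30.3, 21.1, 24.5 and 22.9 FPKM in P7, in the order of replicates 1 to 4. The stages overlapped, with means of 21.9 ± 2.80 and 24.7 ± 3.97 FPKM (SD, n = 4 each). The log2 fold change was 0.16 with a standard error of 0.19 (limma, adjusted p = 0.603) and was −0.091 after median-ratio scaling.

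Both other scalings of the hearts gave all 9 genes a lower log2 fold change than FPKM as deposited. Median-ratio scaling lowered the median log2 fold change of the tested loci with a symbol from 0.19 to −0.01, and the calls over all tested loci went from 1490 higher and 160 lower to 1479 higher and 1075 lower. Quantile normalization gave 1547 higher and 753 lower. Igfbp7 (1.45 and 1.51), Igfbp4 (0.98 and 1.01) and Igfbp6 (0.79 and 0.78) were called higher under both, and Igfbp2 was called lower under both, as was Igf2 with quantile normalization. Directions of Igf1r, Igfbp3 and Igfbp5 turned, as given with each gene.

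**Figure D2:**
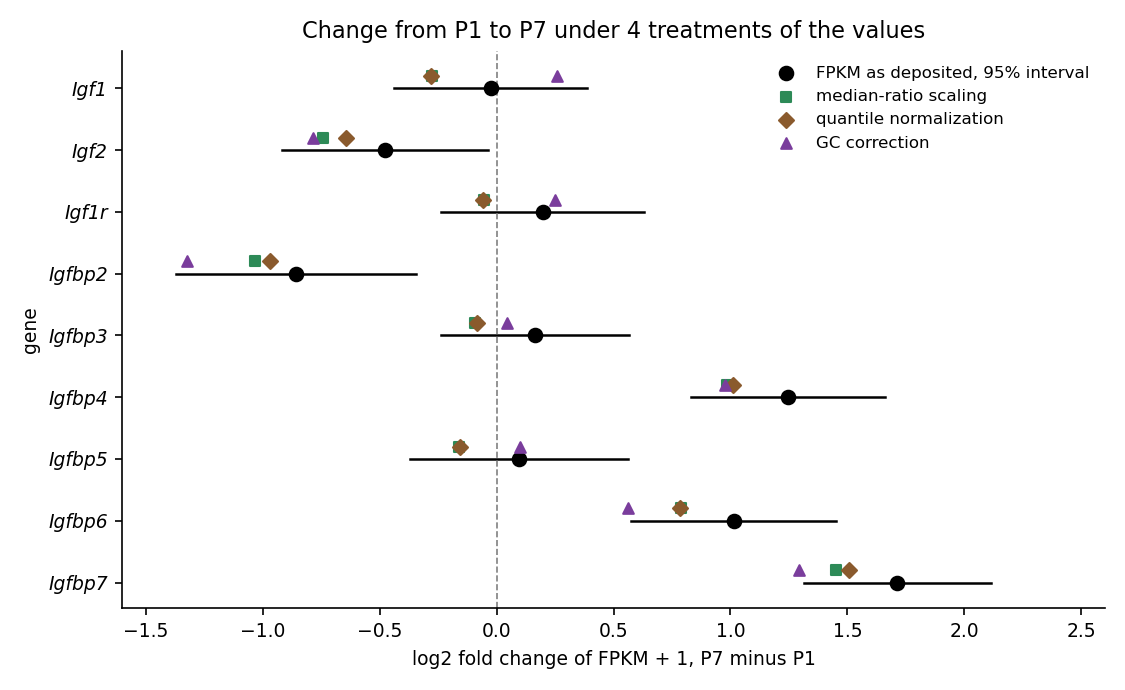
Log2 fold change of FPKM + 1 from P1 to P7 for the 9 genes, as deposited (black points with the 95% interval of the limma fit) and after 3 other treatments of the values (coloured symbols, without intervals). Igfbp4, Igfbp6 and Igfbp7 lie to the right of 0 and Igf2 and Igfbp2 to the left under each of the 4, while the signs of Igf1, Igf1r, Igfbp3 and Igfbp5 depend on the treatment.

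The order of the 9 transcripts changed mainly at the top and at the bottom. At P1 it was Igf2, Igfbp7, Igfbp4, Igfbp5, Igfbp3, Igf1, Igf1r, Igfbp2 and Igfbp6 by mean FPKM. Igfbp4 and Igfbp5 overlapped in range there, as did Igfbp3 with Igf1, Igf1 with Igf1r, and Igfbp2 with Igfbp6. Within hearts, Igfbp4 was above Igfbp5 in every P1 heart. At P7 the order was Igfbp7, Igf2, Igfbp4, Igfbp5, Igfbp3, Igf1r, Igf1, Igfbp6 and Igfbp2. Only Igfbp3 with Igf1r and Igf1r with Igf1 overlapped in range among neighbours. Every single P7 heart still held Igfbp3 above Igf1r and Igf1r above Igf1.

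The 6 binding protein genes together summed to 263 to 331 FPKM at P1 and 731 to 839 FPKM at P7. Igfbp7 held 55.6% to 62.1% of the sum in P1 and 71.6% to 75.6% in P7. Igfbp4, although it rose, held 16.3% to 19.9% and 15.1% to 19.4%, which overlap. Igfbp5 held 10.5% to 16.7% in P1 and 4.99% to 5.83% in P7, Igfbp3 held 6.01% to 8.37% and 2.88% to 3.97%, and Igfbp2 held 1.03% to 1.48% and 0.119% to 0.397%. These 3 shares were lower in every P7 heart, although the FPKM of Igfbp5 and Igfbp3 overlapped between stages. Igfbp6 held 0.927% to 1.44% in P1 and 0.822% to 1.23% in P7. Shares of 1 sum depend on each other and were not tested.

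**Figure D3:**
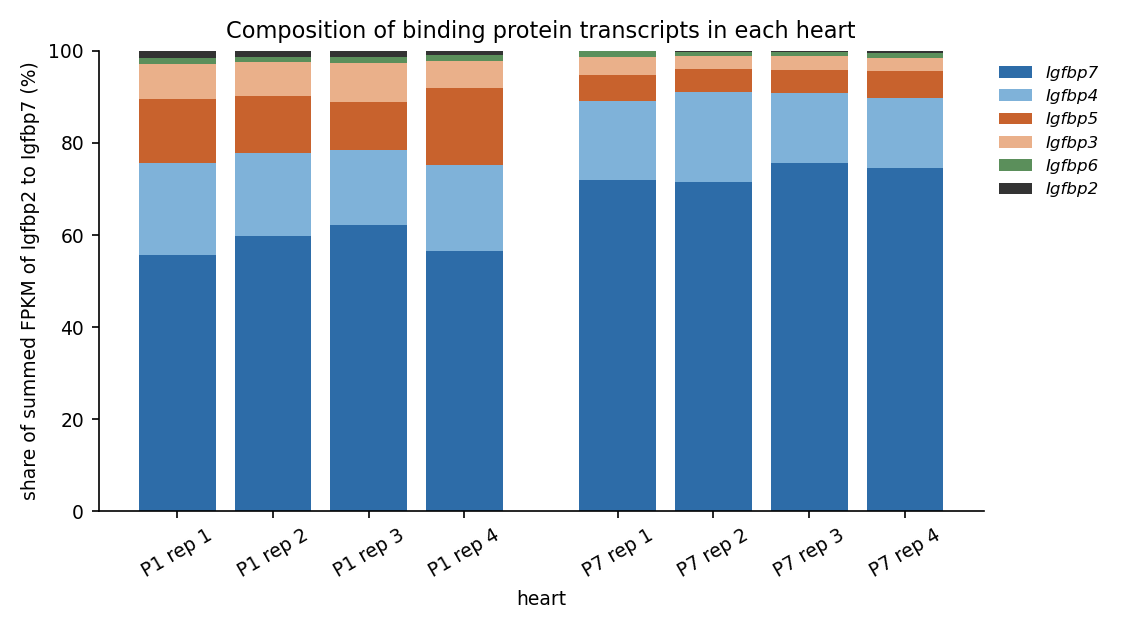
Share of the summed FPKM of Igfbp2 to Igfbp7 held by each of the 6 genes, in percent, for each heart. The Igfbp7 segment spans 55.6% to 62.1% at P1 and 71.6% to 75.6% at P7, and the segments of Igfbp5, Igfbp3 and Igfbp2 are smaller in every P7 heart.

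The 3 ratios within a heart do not depend on a factor shared by all loci of that heart. GC correction and quantile normalization, which move genes by different amounts, were not applied to them. The ratios were compared by a two-sided exact permutation test over the 70 assignments of hearts to stages, whose smallest p is 0.0286. Benjamini-Hochberg adjustment was over the 3. Igf2 to Igf1 was 34.7, 35.7, 27.6 and 17.7 in P1 replicates 1 to 4 and 20.6, 21.04, 21.4 and 18.6 in P7 replicates 1 to 4. P1 replicate 4 was below every P7 heart and the other P1 hearts were above them. The means were 28.9 ± 8.31 and 20.4 ± 1.26 (SD, n = 4 each), with a log2 difference of −0.45 (exact p = 0.143, adjusted 0.214). Igf2 to Igf2r, the ligand beside its clearance receptor, was 9.30, 7.59, 9.80 and 4.48 in P1 replicates 1 to 4 and 4.90, 6.58, 5.50 and 6.27 in P7 replicates 1 to 4. Here too P1 replicate 4 was the lowest of the 8 hearts. The ratio averaged 7.79 ± 2.40 at P1 and 5.81 ± 0.760 at P7 (SD, n = 4 each), with a log2 difference of −0.37 (exact p = 0.229, adjusted 0.229). Leaving out P1 replicate 4 gave −0.67 and −0.62 for these ratios, each with an exact p of 0.0286, the smallest that 3 against 4 hearts allow. It was the only P1 heart not above every P7 heart in these ratios. Without it the stages were bound to separate, so this p-value was fixed in advance and is no support for a difference. Leaving out P1 replicates 1 and 3, the hearts with liver markers, gave −0.30 for Igf2 to Igf1 and −0.015 for Igf2 to Igf2r (exact p = 0.4 and 1.0), although 2 against 4 hearts cannot reach an exact p under 0.05. The symbol Igf2r was on 20 loci, and the ratio above used the locus with the highest mean FPKM. With FPKM summed over all loci that carry each symbol, Igf2 to Igf2r differed by −0.60 (exact p = 0.2).

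Igf1r to Insr, the IGF1 receptor beside the insulin receptor with which it can form hybrids, was 0.426, 0.420, 0.384 and 0.458 in P1 and 0.465, 0.511, 0.440 and 0.497 in P7, in the order of replicates 1 to 4. Only P1 replicate 4 and P7 replicate 3 crossed between the groups. The means were 0.422 ± 0.0306 and 0.478 ± 0.0322 (SD, n = 4 each), and the log2 difference was 0.18 (exact p = 0.0571, adjusted 0.171). Insr was the more abundant receptor transcript at both stages, with 41.1 to 54.9 FPKM in P1 and 38.1 to 58.9 FPKM in P7.

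**Figure D4:**
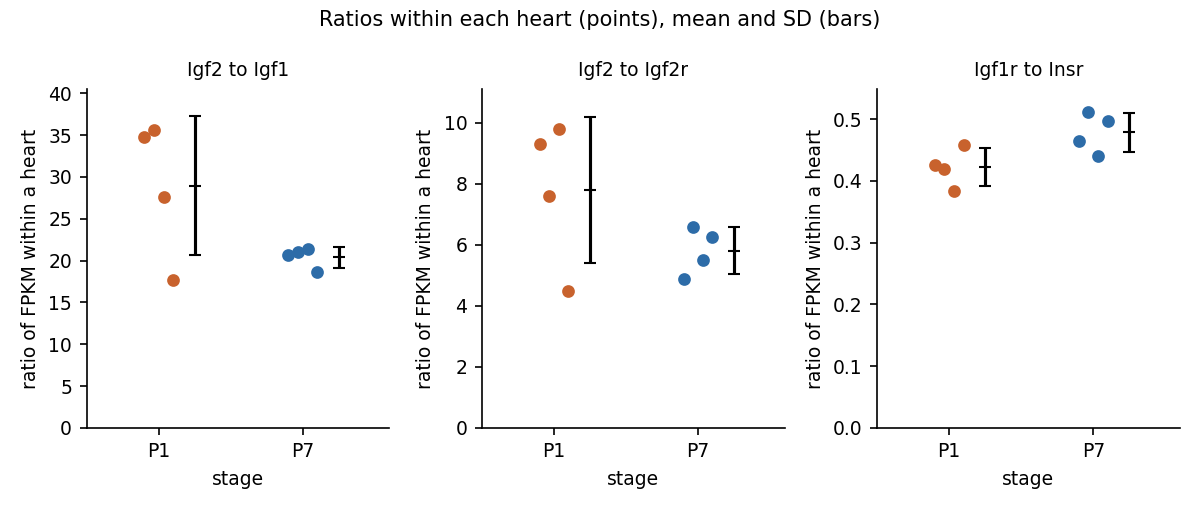
Ratio of FPKM within each heart for Igf2 to Igf1, Igf2 to Igf2r and Igf1r to Insr (points), with the mean and SD of each stage beside them. P1 replicate 4, the lowest P1 point in the first and second panels, is at 17.7 and 4.48, and in each panel the stages overlap.

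The other genes of the pathway were taken as 6 lists of 37 gene symbols, of which 36 matched a locus and 31 reached the 1 FPKM filter. By the same limma rule 5 of the 31 were higher in P7 and 0 were lower, 12 had an unadjusted p under 0.05, and the median log2 fold change was 0.09, beside 7.74% higher among all tested loci with a symbol. All P7 hearts were above all P1 hearts for 8 genes, beside 17.3% of the tested loci with a symbol, and below for 2, beside 2.69%. The count of 5 changed when single hearts were left out. It was 0 when any 1 of 6 hearts was left out (P1 replicate 1, 2 or 3 or P7 replicate 1, 3 or 4). It was 2 without P7 replicate 2 and 8 without P1 replicate 4. The count was also 0 with GC correction, with no filter, without P1 replicates 1 and 3 and without P7 replicates 2 and 4. In the settings with a count of 0, 8 to 15 genes had an unadjusted p under 0.05. Calls over all tested loci changed as well, from 1490 higher and 160 lower with all hearts. They were 166 to 842 higher and 33 to 86 lower without any 1 of those 6 hearts. Without P7 replicate 2 they were 1051 and 95, and without P1 replicate 4 they were 2957 and 422.

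Of the genes that cut binding proteins or block that cutting, 1 of 5 rose. Htra1, a secreted serine protease that cuts several binding proteins, went from 19.2 ± 7.11 to 37.8 ± 8.21 FPKM (SD, n = 4 each), or by 0.98 on the log2 scale (limma, adjusted p = 0.0477). Pappa, the protease of IGFBP4, was near the filter at 0.776 ± 0.164 and 0.696 ± 0.25 FPKM, and Pappa2 at 0.826 ± 0.226 and 0.903 ± 0.439 FPKM. Their inhibitor genes Stc1 (log2 fold change 0.09) and Stc2 (0.62, adjusted p = 0.332) did not pass the test. Htra1 had the highest FPKM of the 5 at both stages.

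Of the adaptor and kinase genes downstream of the receptor, 3 of 13 tested rose. Shc1, an adaptor to RAS, went from 15.8 to 20.04 FPKM in P1 to 26.7 to 34.8 FPKM in P7 (log2 fold change 0.73; limma, adjusted p = 0.0399). Akt2, a kinase of insulin and IGF signalling, went from 15.8 to 26.3 FPKM to 33.9 to 51.5 FPKM (1.01, 0.0263). Pik3r2, a regulatory subunit of PI3K, went from 2.65 to 9.76 FPKM to 10.5 to 13.1 FPKM (1.18, 0.0428), and P1 replicate 4 held the highest P1 value in all 3. Akt1 was higher in every P7 heart, with 31.5 to 90.6 FPKM in P1 and 103 to 153 FPKM in P7, but its adjusted p was 0.0538. Grb14 (log2 fold change 0.79; limma, adjusted p = 0.0947) and Grb2 (0.73, 0.0893) were likewise higher in every P7 heart without passing the test. Pik3ca, Pik3r1 and Sos1 had log2 fold changes of 0.05, 0.06 and 0.09. The insulin receptor substrate genes Irs1 and Irs2 had 0.40 and 0.61 (adjusted p = 0.286 and 0.178), and Irs4 stayed under 1 FPKM. Grb10, an inhibitor of the receptor, was the only one of the 13 with a negative value, −0.33 (adjusted p = 0.431).

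Among the other receptors and carriers, 0 of the 3 tested were called by limma and 0 had an unadjusted p under 0.05: Igf2r at 74.1 ± 18.1 and 68.7 ± 15.9 FPKM, Insr at 45.3 ± 6.51 and 46.6 ± 9.78 FPKM and Igfbpl1 at 2.72 ± 0.625 and 2.598 ± 0.265 FPKM (SD, n = 4 each). The symbol Igf2r was on 20 loci, and its values here are those of the locus with the highest mean FPKM. Igfbp1 and Igfals, which code for carriers made by the liver, and Insrr stayed under 1 FPKM in every heart. Igfbp1 was highest in the P1 hearts with liver markers, at 0.289 FPKM in replicate 1 and 0.365 FPKM in replicate 3. Igfals was also highest in these hearts within P1 (0.093 and 0.089 FPKM), but over both stages it was highest in P7 replicate 1 (0.314 FPKM). Of the growth hormone axis 1 of 5 rose, Stat5a, a transcription factor of the pathway, from 1.43 ± 0.386 to 3.11 ± 0.276 FPKM (log2 fold change 0.77; limma, adjusted p = 0.0387). The growth hormone receptor gene Ghr (0.02) and its kinase gene Jak2 (−0.02) had values near 0, each with a standard error of 0.21.

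The 3 genes for proteins that bind IGF2 mRNA all had negative values, and 0 of 3 were called by limma while 2 had an unadjusted p under 0.05. Igf2bp1 read 5.01, 4.04, 3.07 and 6.70 FPKM in P1 replicates 1 to 4 and 2.06, 1.98, 2.19 and 2.67 FPKM in P7 replicates 1 to 4. No P7 heart reached the lowest P1 heart, and the log2 fold change was −0.79 (adjusted p = 0.0644). Igf2bp2 was also lower in every P7 heart, with 13.0 to 16.6 FPKM in P1 and 10.01 to 11.8 FPKM in P7 (−0.37, 0.261). Igf2bp3, at −0.46 (0.286), overlapped between the stages.

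**Figure D5:**
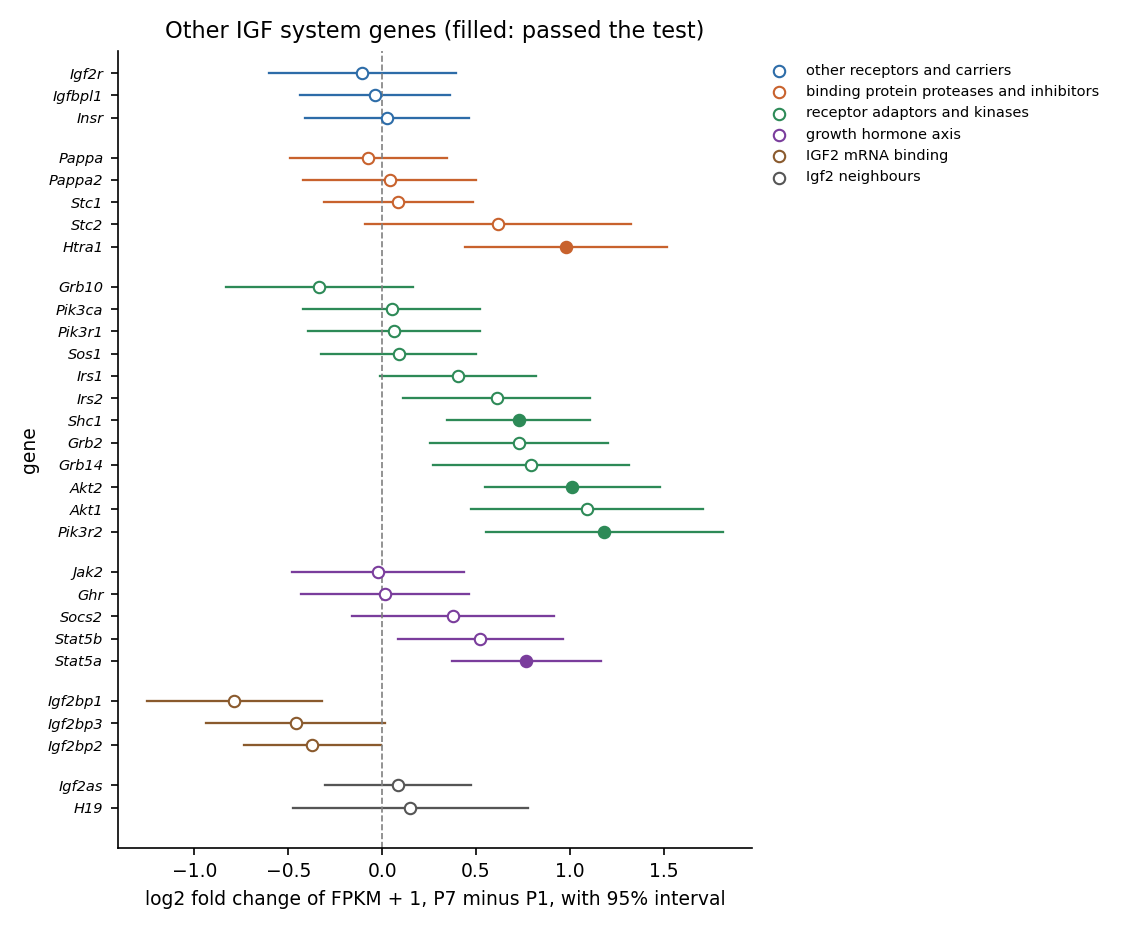
Log2 fold change of FPKM + 1 from P1 to P7 with its 95% interval for 30 of the 31 tested genes of the 6 other IGF system lists, coloured by list. Filled points are the 5 genes called higher in P7 (Htra1, Shc1, Akt2, Pik3r2 and Stat5a), and the 3 Igf2bp genes lie to the left of 0.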

How the data were processed

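RNA was extracted from 4 P1 and 4 P7 hearts, depleted of ribosomal RNA and sequenced in pairs of reads. A service provider of the authors mapped them to GRCm38 (annotation: Ensembl release 70) and summed them over loci, and the deposited unit is FPKM, which divides by transcript length and library size. The aligner and its version, and how strand was used, are not given in the sources used here. FPKM does not correct for RNA composition, so a few abundant loci in 1 heart (the top locus held 10.891% to 27.614% of the FPKM) move all others. Loci without a gene symbol were kept in the test.

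From these values log2(FPKM + 1) was fitted with limma (version 3.58.1, R 4.3.3; lmFit, eBayes with trend) over loci that reached 1 FPKM in 1 or more hearts, with no covariate. Fold changes on this scale understate those of low genes. The thresholds are those of the study, which names no test. Other steps used Python 3.11.15, pandas 2.3.3 and numpy 2.4.6, and scripts were tested on simulated data. Each heart is taken as its own mouse from the methods of the study, while the labels give only stage and replicate. Named genes are the 9 IGF genes and any gene of the 6 lists. These genes, the lists and the cell type markers were chosen with earlier results of these data known. Gene positions are from GENCODE M21. Fragments per locus were estimated from the steps of low FPKM, of which at least 94.68% were within 0.2 of a whole number. Alternatives were a pseudocount of 0.1, no filter or 1 FPKM in every heart, median-ratio scaling, quantile normalization, a block for the replicate number, GC correction against transcript GC content (lowess span 0.3, known for 85.9% of the tested loci with a symbol), FPKM summed over all loci of a symbol, the adjusted p alone, and each heart left out. Leaving out 2 hearts with liver or adipose markers was added after seeing the data. Of the genes in the lists, 1 is counted but its values are not reported here.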

Additional observations from a re-analysis of the deposited data

How the results depend on the processing

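Of the 9 genes, 3 were called with FPKM as deposited. The count was 5 with quantile normalization, 1 without P1 replicates 1 and 3, and between 2 and 4 with 1 heart left out, and it was within 1.5 times of 3 under the other alternatives. For the genes that passed no test the sign turned as follows. Igf1 was 0.26 with GC correction, 0.056 without P7 replicates 2 and 4, and between −0.13 and 0.094 with 1 heart left out, positive without P1 replicate 4 or P7 replicate 2. Igf1r was −0.053 with median-ratio scaling and −0.059 with quantile normalization, Igfbp3 −0.091 and −0.085, and Igfbp5 −0.16 with each. Igfbp5 was also −0.030 without P1 replicates 1 and 3 and between −0.067 and 0.23 with 1 heart left out, negative without P1 replicate 3. Among the 31 tested genes of the 6 other lists, 5 were called by limma with FPKM as deposited, 9 with 1 FPKM in every heart or with median-ratio scaling, 8 with quantile normalization, and between 0 and 8 with 1 heart left out. The count was 0 with no filter (15 at an unadjusted p under 0.05), with GC correction (9), without P1 replicates 1 and 3 (8) and without P7 replicates 2 and 4 (12). In these settings, in this order, 619, 428, 41 and 359 of all tested loci were called higher and 67, 68, 12 and 51 lower. With FPKM as deposited they were 1490 and 160. The log2 difference of the Igf2 to Igf1 ratio lay between −0.67 and −0.33 with 1 heart left out, and that of Igf2 to Igf2r between −0.62 and −0.24. Igf2 to Igf2r was −0.015 without P1 replicates 1 and 3 and −0.60 with FPKM summed over all loci of a symbol, and Igf1r to Insr was 0.10 without P7 replicates 2 and 4. The cause of these changes was not tested, except that leaving out hearts leaves fewer samples. The filter on every heart removed Igfbp2.

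The labels number both stages 1 to 4, and no source says that a number marks a shared litter or day. Deviations of same-numbered hearts correlated at −0.019, 0.122, −0.102 and −0.027 across loci, so the numbers were not taken as pairs. With the replicate number as a block, 3 of the 9 genes were called and 2 of the other 31 genes. Over all 43172 tested loci, 1076 were called higher and 207 lower in that fit.

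Depth limits the lowest genes. Igfbp2 rests on about 12.1 to 16.0 fragments in P7 replicate 1.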
